A study of Mus musculus with 8 samples.

Results

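The genes that move calcium into and out of the endoplasmic or sarcoplasmic reticulum were examined in brown adipose tissue (BAT) of mice exposed to cold or to a high-fat diet. The 10 genes were chosen by symbol: the SERCA calcium pumps Atp2a1, Atp2a2 and Atp2a3, their small inhibitors sarcolipin (Sln) and phospholamban (Pln), the release channels Ryr1, Ryr2 and Itpr1, and the calsequestrins Casq1 and Casq2. Each symbol matched 1 row of the 49452 genes in the deposited table. BAT of male C57BL/6 mice was taken in 4 groups with 2 RNA-Seq libraries each, and no group carried a transgene or deletion in the labels. The first pair of groups was 10 to 12 weeks old and lived at 22 °C or spent 24 h at 4 °C, the last 4 h of them without food according to the methods. The second pair was 32 weeks old after 28 weeks on a normal chow diet (NCD) or a high-fat diet (HFD). The labels call the diet of the control group normal chow, whereas the paper describes a control diet with matched micronutrients. Whether the 22 °C group was fasted too is not clear from the methods. The labels do not say whether each library came from a single animal, so p-values measure the spread between libraries.

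SERCA pumps use ATP to carry calcium from the cytosol into the reticulum, calsequestrins hold it there, and ryanodine and IP3 receptors let it out again. Skeletal muscle builds this cycle mainly from Atp2a1, Ryr1 and Casq1, whereas heart uses Atp2a2, Ryr2, Casq2 and Pln, and most other cells keep a form of Atp2a2 together with IP3 receptors. When sarcolipin is bound to the pump, ATP is spent with less calcium moved, which makes heat in muscle, and calcium cycling through SERCA2 and ryanodine receptors has been described as a heat source in beige fat that works without Ucp1.

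Values are FPKM, fragments scaled to transcript length and to the mapped fragments of the library, so that levels can be compared between genes of different length. Ucp1, the proton carrier that defines brown fat, was listed at 699 to 6462 FPKM in the 8 libraries. The libraries differed in other ways that touch these genes. Every group held 1 library with over 100 FPKM of Gm10800, a gene of satellite repeat (called satellite-high here: HFD replicate 2, NCD replicate 8, 4 °C replicate 11 and 22 °C replicate 4), whereas the other 4 had at most 4.13 FPKM of it. The summed level of 8 fast skeletal muscle markers ranged from 13.8 FPKM in HFD replicate 6 to 3728 FPKM in 4 °C replicate 2. The FPKM of all genes summed to 214794 and 351150 at 22 °C, 759446 and 623157 at 4 °C, 526722 and 743484 with NCD, and 723387 and 823343 with HFD, so that both 22 °C libraries had the lowest sums, and the part of this in the cold differences was not tested beyond the scalings given with them. In bulk tissue, a change in the share of muscle or other cells and a change in RNA per cell cannot be told apart. Both 22 °C libraries and NCD replicate 6 list every X-linked gene at 0, so an exact 0 can be a missing estimate. All 10 members lie on autosomes. In the labels, the library identifiers of all 4 temperature libraries and of NCD replicate 6 begin with one code, and those of NCD replicate 8 and both HFD libraries with another. What the codes stand for is not stated, and both HFD libraries carry the second, so that code and diet are partly mixed in the diet comparison.

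Among the pumps, Atp2a1, the SERCA1 gene of fast skeletal muscle, varied most between libraries. Its gene spans chr7:126445858-126463108 on the minus strand (GRCm38), and its longest annotated transcript has 23 exons. Atp2a1 was at 39.4 and 10.97 FPKM at 22 °C, 502 and 159 FPKM at 4 °C, 33.8 and 115 FPKM with NCD, and 11.2 and 0.794 FPKM with HFD. The lowest and the highest library were 632-fold apart, and the 2 libraries at 4 °C were above every other library. Atp2a2, the SERCA2 gene of heart, slow muscle and most other cells (chr5:122453513-122502225, minus strand), was at 11.8 and 13.6 FPKM at 22 °C, 23.8 and 38.1 FPKM at 4 °C, 8.94 and 48.3 FPKM with NCD, and 28.7 and 15.3 FPKM with HFD. The NCD libraries enclosed all others for this gene, with NCD replicate 8 the highest and NCD replicate 6 the lowest of the 8. Atp2a3, the SERCA3 gene known from blood cells, endothelium and epithelia (chr11:72961169-72993044, plus strand), was at 0.693 and 0.809 FPKM at 22 °C, 2.65 and 1.16 FPKM at 4 °C, 1.07 and 1.33 FPKM with NCD, and 4.72 and 3.26 FPKM with HFD. Both HFD libraries were above the other 6 libraries for Atp2a3.

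**Figure D1:**
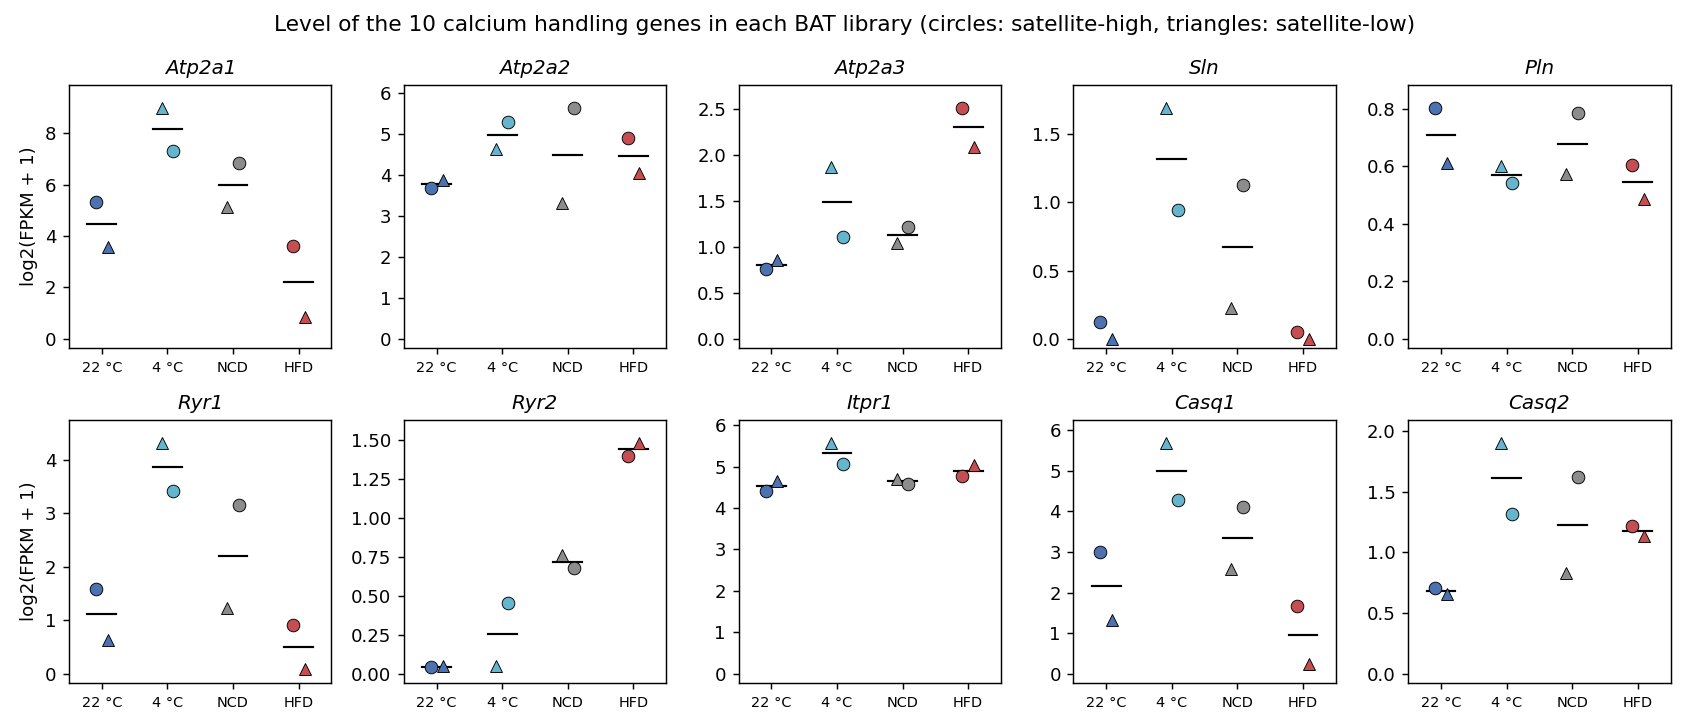
Level of each member in each library as log2(FPKM + 1), by group, with black bars for the mean of the 2 libraries (none where 1 is listed at 0), circles for satellite-high and triangles for satellite-low libraries. Atp2a1, Ryr1 and Casq1 share 1 shape with the highest values at 4 °C, whereas Ryr2 and Atp2a3 are highest with HFD and Pln stays between 0.400 and 0.745 FPKM.

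Which pump prevailed differed between libraries. Of the summed SERCA FPKM, Atp2a1 made up 75.9% and 43.2% at 22 °C, 94.99% and 80.2% at 4 °C, 77.1% and 69.8% with NCD, and 25.2% and 4.09% with HFD. Atp2a2 made up most of the remainder, with 79.1% in HFD replicate 6 and 4.51% in 4 °C replicate 2 as its extremes. Atp2a3 took between 0.502% (4 °C replicate 2) and 16.8% (HFD replicate 6). Both HFD libraries and 22 °C replicate 7 had more Atp2a2 than Atp2a1, and the other 5 libraries had more Atp2a1. These shares were not tested.

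**Figure D2:**
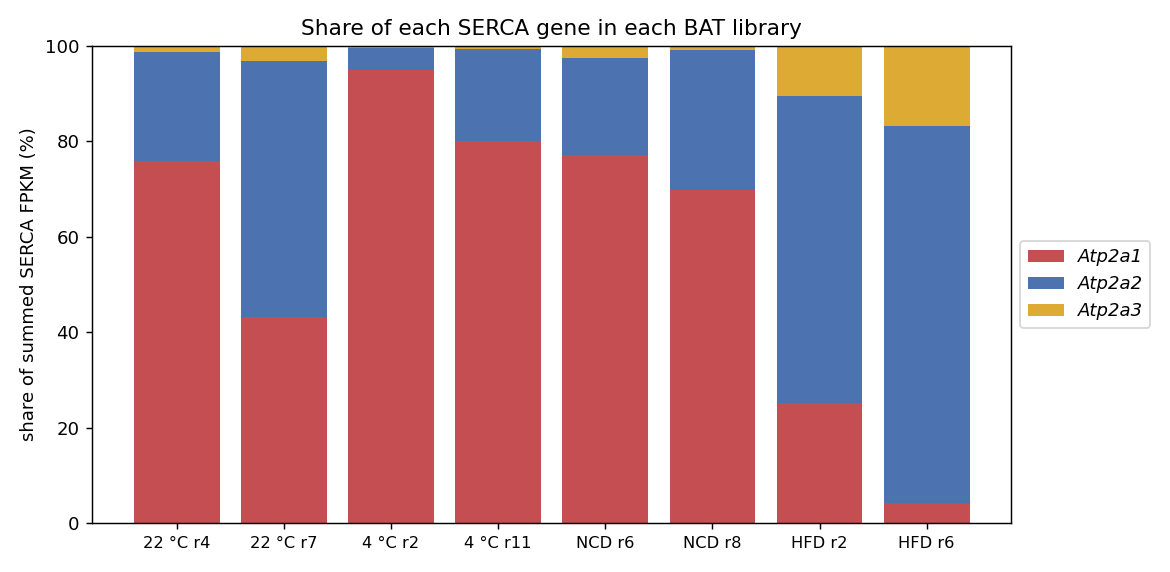
Share of Atp2a1, Atp2a2 and Atp2a3 in the summed FPKM of the 3 pumps (%), 1 bar per library. Atp2a1 takes 69.8% to 94.99% in both 4 °C and both NCD libraries and in 22 °C replicate 4, whose share is 75.9%, and 4.09% to 25.2% with HFD.

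Of the pump inhibitors, sarcolipin, the short SERCA regulator of muscle and atrium, was at its lowest listed values at 22 °C and with HFD. Sln has a single annotated transcript of 1318 bases and 2 exons (chr9:53850164-53854560, plus strand). It was at 0.0904 FPKM and listed at 0 at 22 °C, at 2.22 and 0.927 FPKM at 4 °C, at 0.167 and 1.18 FPKM with NCD, and at 0.0341 FPKM and listed at 0 with HFD. In short genes with 1 transcript, low FPKM came in steps of 1 fragment, and this step puts 12.98 fragments behind Sln in 22 °C replicate 4, 233 and 113 fragments at 4 °C, 23.0 and 129 fragments with NCD, and 4.01 fragments in HFD replicate 2. The zeros listed in 22 °C replicate 7 and HFD replicate 6 can be low levels or missing estimates, and the tests took them as 0. Sln to Atp2a1 was between 0.229% and 1.03% in the 6 libraries with Sln above 0, so Atp2a1 exceeded Sln in each of them. Phospholamban, the inhibitor of SERCA2 in heart and slow muscle (chr10:53337686-53345999, plus strand), was at 0.745 and 0.529 FPKM at 22 °C, 0.518 and 0.455 FPKM at 4 °C, 0.487 and 0.725 FPKM with NCD, and 0.523 and 0.400 FPKM with HFD. Its highest value was 1.86-fold its lowest, the smallest span of the 10 genes. Pln overlaps Cep85l on the opposite strand, which was at 2.67 to 8.69 FPKM, and the sources used here do not state whether the authors' counting used strand.

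The release channels fell into different patterns. Ryr1, the ryanodine receptor of skeletal muscle (chr7:29003344-29125179, minus strand), was at 2.01 and 0.548 FPKM at 22 °C, 18.96 and 9.62 FPKM at 4 °C, 1.35 and 7.89 FPKM with NCD, and 0.876 and 0.0607 FPKM with HFD. As for Atp2a1, both 4 °C libraries were above the other 6. Ryr2, the ryanodine receptor of heart (chr13:11553103-12106945, minus strand), was at 0.0304 and 0.0332 FPKM at 22 °C, 0.0362 and 0.368 FPKM at 4 °C, 0.695 and 0.597 FPKM with NCD, and 1.63 and 1.79 FPKM with HFD. Its 4 groups did not overlap in the order of means, 22 °C, 4 °C, NCD and HFD. The step from 22 °C to 4 °C lay between 0.0332 and 0.0362 FPKM, too low to be tested. The share of all genes with groups separated in this way was not computed. The older diet cohort lay above the younger temperature cohort for Ryr2, and age, diet and cohort cannot be told apart in that difference. Itpr1, an IP3 receptor present in most cell types (chr6:108213096-108551109, plus strand), was the steadiest channel, at 20.2 and 24.2 FPKM at 22 °C, 46.6 and 32.5 FPKM at 4 °C, 25.0 and 22.9 FPKM with NCD, and 26.2 and 31.7 FPKM with HFD. Ryr1 to Ryr2 ranged from 0.0339 in HFD replicate 6 to 524 in 4 °C replicate 2 and was under 1 with HFD alone. Itpr1 exceeded Ryr1 per length in all 8 libraries, by 2.46-fold in 4 °C replicate 2 and by 522-fold in HFD replicate 6.

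Both calsequestrins, which buffer calcium inside the reticulum, had their highest level in 4 °C replicate 2. Casq1, the form of fast muscle (chr1:172209894-172219868, minus strand), was at 7.06 and 1.51 FPKM at 22 °C, 50.7 and 18.4 FPKM at 4 °C, 4.93 and 16.2 FPKM with NCD, and 2.17 and 0.175 FPKM with HFD. Casq2, the form of heart and slow muscle (chr3:102086415-102146514, plus strand), was at 0.632 and 0.578 FPKM at 22 °C, 2.74 and 1.49 FPKM at 4 °C, 0.782 and 2.08 FPKM with NCD, and 1.33 and 1.202 FPKM with HFD. Casq1 exceeded Casq2 in every library other than HFD replicate 6, by up to 18.5-fold in 4 °C replicate 2, and stood at 0.146 of Casq2 in that HFD library.

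Because Atp2a1, Ryr1 and Casq1 had their highest and lowest levels in the same libraries, the 250 bases before their annotated start are shown. RefSeq (GRCm38.p6) gave such a sequence for 7 of the 10 members. The stretches lie on the minus strand at chr7:126463074-126463323, chr7:29125152-29125401 and chr1:172219896-172220145 and are written 5′ to 3′, with capitals for E-boxes (CANNTG, a palindrome that covers both strands), the letters bound by myogenic factors.
Atp2a1: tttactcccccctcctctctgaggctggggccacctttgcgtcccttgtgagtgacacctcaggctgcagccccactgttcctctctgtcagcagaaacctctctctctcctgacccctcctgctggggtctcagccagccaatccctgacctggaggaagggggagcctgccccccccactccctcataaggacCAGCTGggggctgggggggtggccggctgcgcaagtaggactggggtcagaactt
Ryr1: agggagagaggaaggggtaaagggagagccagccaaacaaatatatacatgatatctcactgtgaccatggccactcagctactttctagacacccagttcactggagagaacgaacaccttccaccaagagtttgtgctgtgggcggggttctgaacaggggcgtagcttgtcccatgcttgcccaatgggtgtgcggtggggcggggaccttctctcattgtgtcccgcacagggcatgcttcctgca
Casq1: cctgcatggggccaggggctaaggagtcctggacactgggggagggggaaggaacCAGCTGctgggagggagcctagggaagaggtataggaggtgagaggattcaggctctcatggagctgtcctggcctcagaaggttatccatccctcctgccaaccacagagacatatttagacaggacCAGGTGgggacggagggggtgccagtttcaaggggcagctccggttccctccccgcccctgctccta
Atp2a1 held 1 E-box, Casq1 held 2 and Ryr1 held 0. Of 32817 annotated promoters, 66.2% held at least 1 E-box in the same window and 31.8% held 2 or more. The MEF2 motif, searched on both strands, was found in 0 of these 3 stretches and in 2.92% of all promoters, and among the members in Casq2 alone.

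The first comparison asked how these genes responded to cold. Atp2a1, Ryr1 and Casq1 were 13.1-fold, 11.2-fold and 8.07-fold higher at 4 °C by group means, Casq2, Atp2a3 and Atp2a2 were 3.499-fold, 2.53-fold and 2.43-fold higher, and Itpr1 was 1.78-fold higher. Pln was lower in both 4 °C libraries, at 0.764 of the 22 °C mean. None of these differences passed the threshold, an adjusted p under 0.05 with a log2 difference of at least 1. The test was limma on log2(FPKM + 1), which understates differences of genes under a few FPKM, with Benjamini-Hochberg adjustment over all 17477 genes tested. Ryr2 was under 0.1 FPKM in 3 of the 4 libraries and was not tested.

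Ryr1 came closest, with a log2 difference of 2.75 ± 0.44 (SE, 95% interval 1.65 to 3.86) and an adjusted p of 0.0517. Sln followed at 1.26 ± 0.25 with a limma adjusted p of 0.0636, and Atp2a1 at 3.69 ± 0.77 with 0.0702. Both 22 °C libraries listed Sln under 0.1 FPKM, so it met the filter of 0.1 FPKM in 2 libraries through the 4 °C group alone. The Sln test and its place in the counts below therefore rest on the group where it was high. Atp2a2 differed by 1.19 ± 0.28 (adjusted p = 0.0854), Casq2 by 0.93 ± 0.22 (adjusted p = 0.0873) and Casq1 by 2.82 ± 0.70 (adjusted p = 0.0927). The values of Itpr1 (0.79 ± 0.26, adjusted p = 0.151), Atp2a3 (0.68 ± 0.27, adjusted p = 0.201) and Pln (-0.14 ± 0.10, adjusted p = 0.466) were further from the threshold. Itpr1 was at 0.30 after quantile normalization and 0.39 after rescaling without Ucp1 and rRNA genes, and Atp2a3 at 0.30 without 4 °C replicate 2 and 1.06 without 4 °C replicate 11. Among all genes 1.44% were past the threshold, against 0 of the 9 members tested. At an unadjusted p under 0.05, 8 of the 9 members stood beside 24.5% of all genes. Both 4 °C libraries were above both 22 °C libraries in the same 8 members, against 37.9% of all genes, and below them in Pln, against 20.6%. A log2 difference of at least 1 was reached by 5 members (Atp2a1, Atp2a2, Casq1, Ryr1 and Sln) and by 5.44% of all genes. The median log2 difference was 1.19 over the members tested and 0.07 over all genes.

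Several calls and values depended on the scaling or on single libraries. Centring each library on its median gene lowered all log2 differences by 0.26 in the cold and by 0.35 with HFD, and the values given here are before that shift. After it, in the cold, Ryr1 (2.50, limma adjusted p = 0.0164) and Atp2a1 (3.43, adjusted p = 0.0319) passed, and 758 of 17477 genes did. Without 4 °C replicate 2, which had the most muscle marker RNA, 0 members passed and 1 gene in all did. Without 22 °C replicate 4 and without 22 °C replicate 7, Atp2a1 was at 4.57 and 2.81 and Ryr1 at 3.23 and 2.28. Casq1 was at 3.66 and 1.97 and Sln at 1.32 and 1.19 in the same fits. Casq2 was at 1.22 without 4 °C replicate 11. With 1 library left out, the lone library was assumed to vary like the group that kept 2. With library type (satellite-high or satellite-low) as a covariate, Atp2a1, Ryr1 and Sln passed, and 859 of 17477 genes did. Within satellite-high and within satellite-low libraries the differences were 1.98 and 5.39 for Atp2a1, 1.82 and 3.69 for Ryr1, 0.82 and 1.69 for Sln, and 1.61 and 0.76 for Atp2a2, with 1 library a group and no test. For Casq1 they were 1.27 and 4.37.

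**Figure D3:**
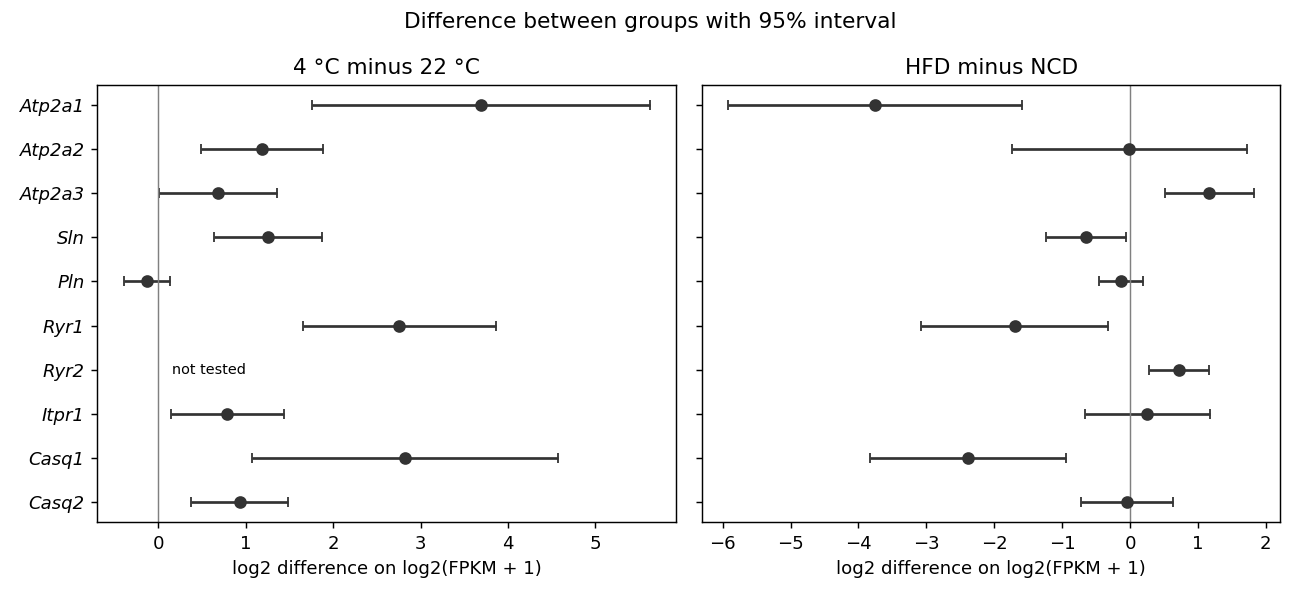
Log2 difference of each member on log2(FPKM + 1), 4 °C minus 22 °C on the left and HFD minus NCD on the right, with 95% intervals from limma (2 libraries per group). Atp2a1, Ryr1 and Casq1 lie to the right of 0 in the cold and to the left with HFD, whereas the intervals of Atp2a2, Casq2, Itpr1 and Pln include 0 with HFD.

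The second comparison asked how the genes responded to long-term high-fat feeding. Atp2a1 was 12.3-fold, Ryr1 9.86-fold and Casq1 8.99-fold lower with HFD by group means, and Atp2a3 and Ryr2 were 3.33-fold and 2.65-fold higher. None passed the threshold, which 0.0684% of 17543 genes did. Atp2a1 differed by -3.76 ± 0.92 (adjusted p = 0.169), Casq1 by -2.39 ± 0.61 (adjusted p = 0.171) and Ryr1 by -1.70 ± 0.59 (adjusted p = 0.260). Atp2a3 differed by 1.17 ± 0.28 (adjusted p = 0.167) and Ryr2 by 0.72 ± 0.19 (95% interval 0.27 to 1.16, adjusted p = 0.182). Sln differed by -0.65 ± 0.25 with a limma adjusted p of 0.304. With pseudocount 0.1 its value was -2.33, and after rescaling without Ucp1 and rRNA genes -1.37. Both HFD libraries listed Sln under 0.1 FPKM, so it met the filter through the NCD libraries alone. Its test and its place in the counts below therefore rest on the group where it was high. Of the remaining members, whose intervals included 0, for Atp2a2 the difference was -0.01 (95% interval -1.74 to 1.73), for Casq2 -0.05 (-0.73 to 0.63), for Pln -0.13 (-0.45 to 0.19) and for Itpr1 0.26 (-0.66 to 1.17), and the Itpr1 value was -0.10 after median centring.

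Both HFD libraries were below both NCD libraries in Atp2a1, Casq1, Ryr1 and Sln, which is 4 of 10 members against 5.8% of all genes. They were above in Atp2a3, Itpr1 and Ryr2, 3 members against 39.9% of all genes. A log2 difference of at least 1 was found for Atp2a3 (3.46% of all genes), and one of -1 or less for Atp2a1, Casq1 and Ryr1 (0.935% of all genes). At an unadjusted p under 0.05 there were 6 of 10 members and 14.4% of all genes, and the median log2 difference was -0.09 over the members and 0.18 over all genes. With library type as a covariate, 4 members passed: Atp2a1, Casq1 and Ryr1 lower and Atp2a3 higher. In that fit 745 of 17543 genes passed. Within satellite-high and within satellite-low libraries the differences were -3.24 and -4.28 for Atp2a1, -2.44 and -2.34 for Casq1, 1.29 and 1.04 for Atp2a3 and -0.73 and 0.72 for Atp2a2, with no test. For Ryr1 they were -2.245 and -1.15, and for Sln -1.08 and -0.22. Leaving out 1 library left a lone library in its group, so only the differences are given here for these fits. In each of these fits the spread came from the group that kept 2 libraries, and the lone library was assumed to vary like it. Without NCD replicate 6, the 3 libraries that share an identifier code gave -4.63 for Atp2a1, -3.15 for Casq1, -2.66 for Ryr1, 1.08 for Atp2a3, 0.76 for Ryr2 and -1.16 for Atp2a2. Over all 4 libraries left out in turn, Atp2a1 was between -5.14 and -2.37 (the latter without HFD replicate 6), Casq1 between -3.15 and -1.62 (the latter without NCD replicate 8) and Ryr1 between -2.66 and -0.73 (the latter without NCD replicate 8).

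Blood and immune cell markers were summed beside Atp2a3, a gene of blood cells among others. The 8 listed markers summed to 91.3 and 91.4 FPKM with HFD and to 29.9 and 11.1 FPKM with NCD, and both HFD libraries were above both NCD libraries in 5 of 8, against 39.9% of all genes. Cd79a of B cells was lower in both HFD libraries (-0.03), and of the platelet genes Itga2b (-0.19) and Gp9 (-0.01) overlapped between the groups. Pf4, also a platelet gene, was at 43.3 and 47.2 FPKM with HFD and at 13.4 and 5.23 FPKM with NCD (2.28, limma adjusted p = 0.151). The macrophage gene Cd68 was at 29.6 and 21.1 FPKM with HFD and at 6.79 and 1.89 FPKM with NCD (log2 difference 2.46 ± 0.51 SE, limma adjusted p = 0.151), and no marker of the list passed the threshold. Between the NCD libraries the order was opposite, since replicate 6 had the larger marker sum and the lower Atp2a3 level (1.07 against 1.33 FPKM). The same held at 22 °C, where replicate 4 had the larger sum and the lower Atp2a3 level (0.693 against 0.809 FPKM). At 4 °C, replicate 2 had both the larger sum and the higher Atp2a3 level (2.65 against 1.16 FPKM), and the HFD sums were nearly equal. In the cold comparison, where Atp2a3 was 2.53-fold higher by group means, the markers summed to 22.0 and 14.8 FPKM at 22 °C and to 24.99 and 13.4 FPKM at 4 °C, and 0 of the 7 tested were higher in both 4 °C libraries (37.9% of all genes). Gp9, too low to be tested there, was at 0.0223 and 0.0342 FPKM at 22 °C and at 0.0460 and 0.0658 FPKM at 4 °C. The 4 endothelial markers summed to 80.5 and 75.6 FPKM with HFD and to 47.7 and 54.3 FPKM with NCD. Both HFD libraries were higher in 2 of 4 (39.9% of all genes) and lower in 0. These markers summed to 67.3 and 65.8 FPKM at 22 °C and to 65.6 and 98.9 FPKM at 4 °C. Both 4 °C libraries were higher in 1 (37.9% of all genes) and lower in 1 (20.6%). The part of blood, immune and endothelial cells in the Atp2a3 values was not tested. Heart markers were low: of 5, Tnni3 was at 0.0229 to 0.421 FPKM and higher in both HFD libraries (0.24, adjusted p = 0.412), as Ryr2 was, Tnnt2 was at 0 to 0.226 FPKM, Myl7 was listed at 0 in every library other than NCD replicate 8, Nppa did not exceed 0.0233 FPKM, Myh6 did not exceed 0.0511 FPKM, and the sum of the list was 0.0346 to 0.533 FPKM, against up to 1.79 FPKM of Ryr2.

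The difference between the cold effect and the diet effect was tested across all 8 libraries. It was 7.45 ± 1.53 for Atp2a1 (limma, adjusted p = 0.0656), 4.45 ± 0.94 for Ryr1 (adjusted p = 0.0695), 5.20 ± 1.15 for Casq1 (adjusted p = 0.0755) and 1.90 ± 0.44 for Sln (adjusted p = 0.0849) on the log2 scale. For the other 6 members the adjusted p was at least 0.223. Sln met the filter through the 4 °C and NCD libraries alone. Its test and its place in the counts below therefore rest on the groups where it was high. No member passed, against 1.04% of 18902 genes, and 6 of 10 had an unadjusted p under 0.05, against 18.4% of all genes. Library type as a covariate let Atp2a1, Casq1 and Ryr1 pass, and median centring let Atp2a1 pass. No share of all genes is given for these settings, so these calls cannot be set against it.

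The skeletal forms were high where skeletal muscle markers were high. A skeletal muscle score, the mean log2(FPKM + 1) over 15 fast and slow muscle markers that are not members, stood at 3.64 and 2.01 for 22 °C, 6.9998 and 6.26 for 4 °C, 3.91 and 6.14 with NCD, and 2.65 and 0.78 with HFD. The score ordered the groups as Atp2a1 and Ryr1 did, with both 4 °C libraries on top and HFD replicate 6 at the bottom. Atp2a1, Ryr1 and Casq1 each had the same rank as the score in 6 of 8 libraries. Set against each 1000 FPKM of the summed fast markers, Atp2a1 was at 57.3 to 135 FPKM in all libraries, a 2.35-fold span beside 632-fold in FPKM. Ryr1 spanned 2.28-fold (2.68 to 6.11) beside 312-fold, and Casq1 1.59-fold (9.83 to 15.7) beside 289-fold. Sln was at 0.187 to 0.912 in the libraries where it was above 0. The marker sum itself spanned 269-fold, so dividing by it must widen genes of steady level. The spans after division were 173-fold for Atp2a2, 183-fold for Itpr1 and 208-fold for Pln, each above its span in FPKM.

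In the fit over all 8 libraries with the muscle score as a covariate, the cold values were -0.59 for Atp2a1, -0.41 for Casq1, -0.76 for Atp2a2, 0.13 for Ryr1, 0.32 for Sln, 0.14 for Casq2, 0.16 for Atp2a3, 1.05 for Itpr1 and -0.48 for Pln. The diet values were 1.69 for Atp2a2, 1.62 for Atp2a3, 0.64 for Casq2, 0.59 for Ryr1, 0.53 for Ryr2, 0.42 for Casq1, 0.17 for Pln, 0.16 for Sln, 0.03 for Itpr1 and -0.03 for Atp2a1. No gene of the table passed in that fit. The cold comparison also had higher slow muscle markers: all 7 listed passed the threshold, against 1.44% of all genes, among them Myl2 (5.23 ± 0.69, adjusted p = 0.0442), Tnni1 (4.83 ± 0.36, adjusted p = 0.0196), Tnnc1 (4.51 ± 0.39, adjusted p = 0.0208) and Tnnt1 (4.46 ± 0.46, adjusted p = 0.0278). Without 4 °C replicate 2 none of these 4 passed, and their differences were 4.70 (Myl2), 4.48 (Tnni1), 4.43 (Tnnc1) and 4.30 (Tnnt1). Of the 8 fast markers 0 passed, and all 8 had both 4 °C libraries on top (37.9% of all genes), the median log2 difference being 3.42. With HFD both lists had 0 members past the threshold, with medians of -3.76 (fast) and -3.27 (slow).

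**Figure D4:**
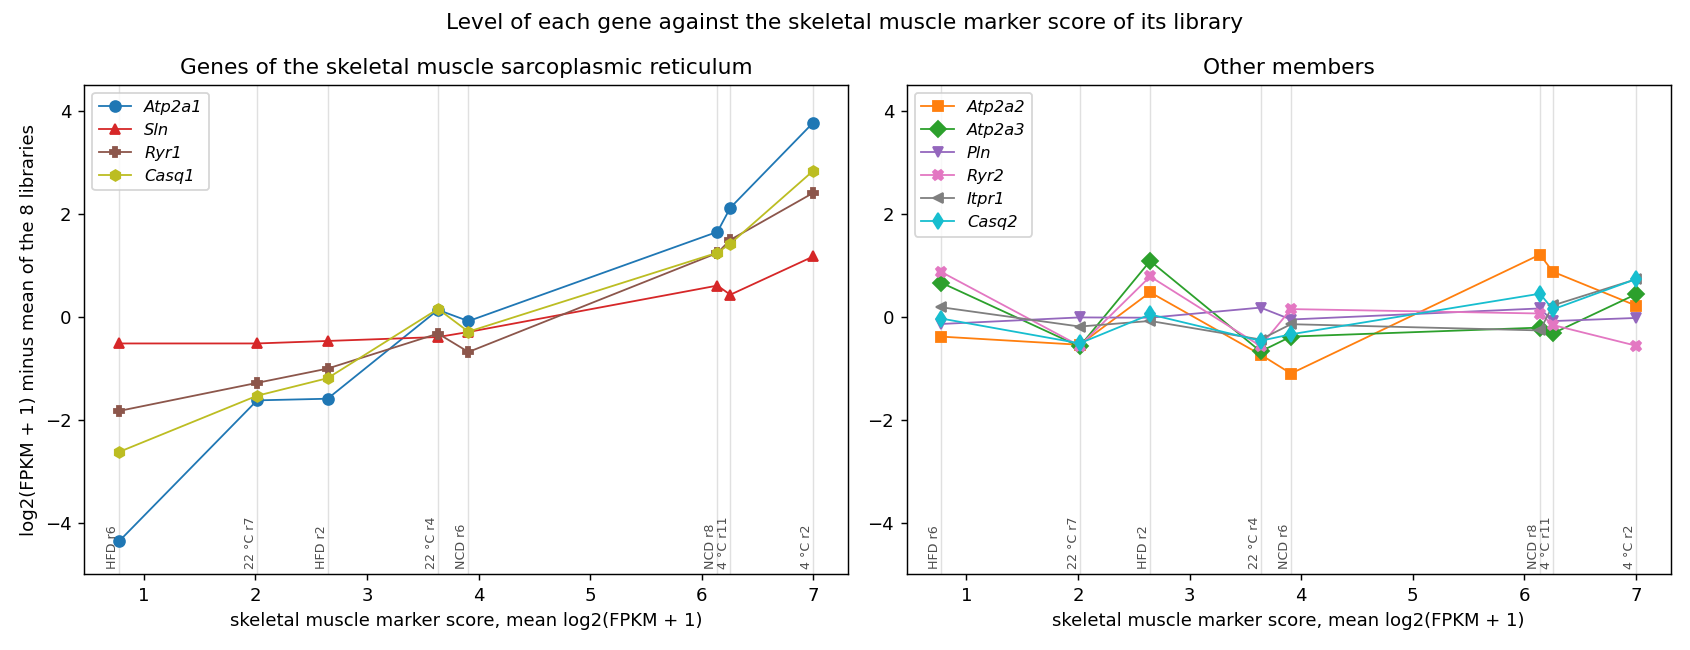
Level of each member as log2(FPKM + 1) minus its mean over the 8 libraries, against the skeletal muscle marker score of the library (15 markers), with the 4 skeletal forms on the left and the other 6 members on the right. Atp2a1, Ryr1 and Casq1 climb from HFD replicate 6 (score 0.78) to 4 °C replicate 2 (score 6.9998). Atp2a2 has 3 of its 4 highest levels in the 3 libraries with the highest scores.

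Further calcium genes were taken from lists by compartment. Of 43 tested in the cold, 33 were higher in both 4 °C libraries (37.9% of all genes), Srl passed the threshold and the median log2 difference was 0.70. With HFD, 15 of 43 were higher (39.9% of all genes) and 16 lower (5.8% of all genes) in both libraries, 0 passed and the median was 0.09. The 2 small SERCA regulators of muscle were at 1.58 (Mrln) and 1.85 (Strit1) in the cold and at -0.97 and -1.38 with HFD, with adjusted p-values of 0.0743 to 0.201. Strit1, the SERCA activator DWORF, was at 5.11 and 1.71 FPKM at 4 °C and listed at 0 in 22 °C replicate 7 and HFD replicate 6, as Sln was.

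Of 18 tested genes of the triad and sarcoplasmic reticulum, where the voltage sensor Cacna1s meets Ryr1, 16 were higher in both 4 °C libraries (37.9% of all genes) and 13 were lower in both HFD libraries (5.8% of all genes), with medians of 1.42 and -0.78. Srl (sarcalumenin, a calcium-binding protein of the sarcoplasmic reticulum) was at 12.8 and 14.9 FPKM at 22 °C and at 65.8 and 42.5 FPKM at 4 °C, and rose by 1.87 ± 0.28 with an adjusted p of 0.0486. Its adjusted p was between 0.00616 and 0.197 under the alternatives, and it did not pass without 4 °C replicate 2 (1.56, adjusted p = 0.119), without a filter (1.87, adjusted p = 0.177), without an intensity trend (1.87, adjusted p = 0.0827) or with the muscle score as a covariate (1.60, adjusted p = 0.197). With HFD the extremes of the list were Fkbp1a, a ryanodine receptor subunit, at 0.63 ± 0.37 and the calcium buffer Pvalb at -3.74 ± 0.82, the latter with 9.53 and 0.796 FPKM with HFD against 36.1 and 89.8 FPKM with NCD.

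Genes of the general endoplasmic reticulum and store-operated entry (10 tested, 0 past the threshold in either comparison) had medians of 0.31 in the cold and 0.33 with HFD. The calcium sensor Stim1 was highest in the cold (0.84 ± 0.24, adjusted p = 0.117, and 0.38 after quantile normalization and 0.45 after rescaling) and the IP3 receptor Itpr2 lowest (-0.50 ± 0.20, adjusted p = 0.204), opposite to the sign of Itpr1. With HFD they ranged from Calr, the reticulum's calcium-binding chaperone (1.003 ± 0.52, adjusted p = 0.439), to the entry channel Orai3 (-0.22 ± 0.36, adjusted p = 0.82). Of the 5 plasma membrane and Golgi exporters tested, the exchanger Slc8a3 was highest in the cold (0.63 ± 0.15, adjusted p = 0.0853) and lowest with HFD (-0.45 ± 0.17, adjusted p = 0.284). Slc8a1, the exchanger of heart, was lowest in the cold (-0.03) and the pump Atp2b4 highest with HFD (0.98 ± 0.31, adjusted p = 0.222).

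Among 8 mitochondrial genes of calcium uptake and release the median was 0.52 in the cold and 0.17 with HFD. Letm1, an inner membrane protein of ion exchange, was at 15.5 and 27.5 FPKM at 22 °C and at 95.2 and 81.4 FPKM at 4 °C, a log2 difference of 2.04 ± 0.32 with an adjusted p of 0.0517, and at -0.24 ± 0.48 with HFD. In the cold it passed under 8 of 15 alternatives, with adjusted p-values from 0.000583 to 0.179 over all 15, and was at 3.29 (adjusted p = 0.0928) with the muscle score as a covariate. Mcub, the inhibitory subunit of the calcium uniporter, was at -0.05 ± 0.12 in the cold. With HFD it was at 2.38 and 3.89 FPKM against 1.13 and 0.411 FPKM with NCD, a log2 difference of 1.23 ± 0.31 that missed the threshold (limma adjusted p = 0.169). Under the alternatives this difference was between 0.65 and 1.99.

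**Figure D5:**
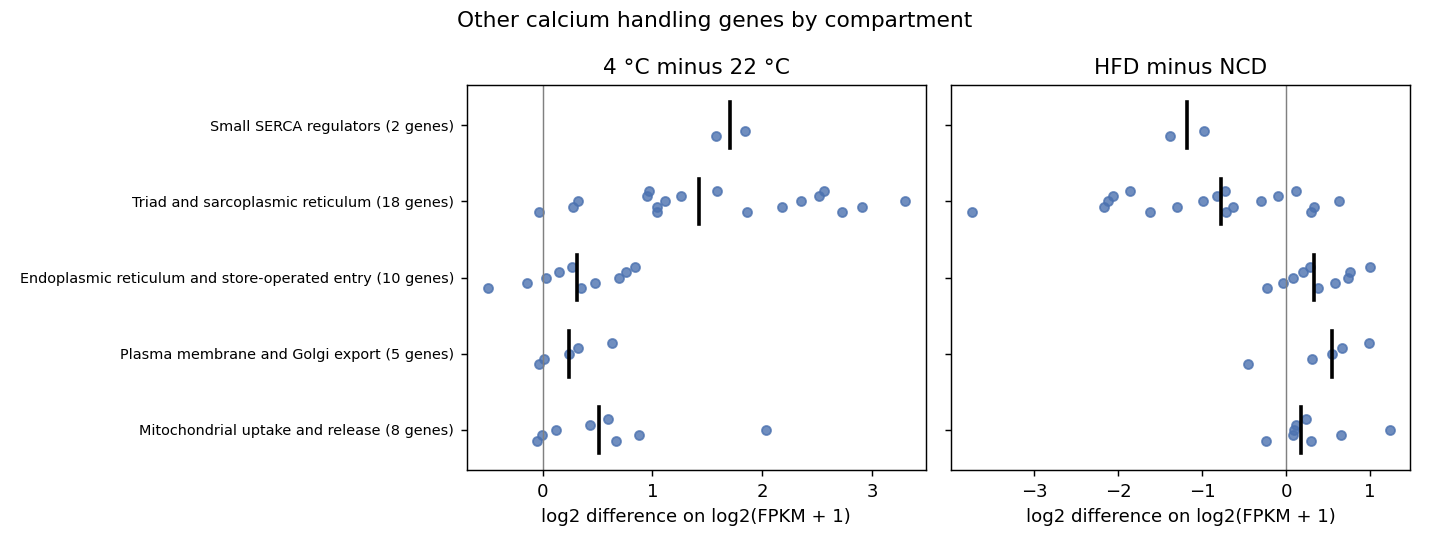
Log2 difference on log2(FPKM + 1) of the other calcium genes tested, 1 point per gene, by compartment, with black bars for the median, 4 °C minus 22 °C on the left and HFD minus NCD on the right. The triad genes have medians of 1.42 and -0.78, and the endoplasmic reticulum genes 0.31 and 0.33.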

How the data were processed

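BAT RNA was depleted of rRNA, made into directional libraries and sequenced in paired-end mode. The authors mapped reads to GRCm38 with TopHat2 (2.0.10) and made gene values with Cufflinks (2.2.1 in the submitters' processing notes). The deposited FPKM values, 1 per gene and library, were used as they stand, and no counts were used here. Genes were matched to GENCODE M21 by identifier (49195 of 49452). Log2(FPKM + 1) was tested with limma 3.58.1 in R 4.3.3 (eBayes with an intensity trend), 2 libraries against 2, two-sided, for genes that reached 0.1 FPKM in 2 or more of the libraries compared, without X, Y and mitochondrial genes. P-values were adjusted over all genes. A call needed an adjusted p under 0.05 and a log2 difference of at least 1 in either direction. The difference of the 2 effects used all 8 libraries. The test was checked on simulated data.

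Groups came from the labels. Members and lists were chosen with earlier results of these data known. All members were named, and of other lists the genes past the threshold (up to 4 per direction by size) or, where none passed, the highest and the lowest. Further heart and blood markers named beside Ryr2 and Atp2a3, and the endothelial sums, were chosen after their values were seen. Marker lists covered fast and slow skeletal muscle, heart, smooth muscle, brown adipocytes, endothelium, and blood and immune cells, and 1 further list is not reported here. The table gives no depth. For single-exon genes of 600 to 3000 bases with a single transcript, 97.5% to 98.6% of low values were whole fragments within 0.1, which gave the fragments behind Sln. Alternatives were other pseudocounts, filters and scalings, library type or muscle score as a covariate, and each library left out.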

Additional observations from a re-analysis of the deposited data

How the results depend on the processing

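No paired analysis was possible because the 22 °C and 4 °C groups share no replicate number and the NCD and HFD groups share 1. With 2 libraries per group, calls moved with many settings, and the cause was not tested. At 22 °C Sln was at 0.0904 FPKM and listed at 0, so it met the filter through the 4 °C libraries alone. With pseudocount 0.1 its log2 difference in the cold went from 1.26 to 3.48, and the listed 0 can be a missing estimate. The Sln call given below for pseudocount 0.1 rests on these low values, so it cannot decide whether Sln differed. In the cold, the members past the threshold were 1 with pseudocount 0.1 (Sln) and 1 with at least 1 FPKM (Ryr1), 2 after median centring, 2 after quantile normalization, 4 after rescaling without Ucp1 and rRNA genes, 3 with library type as a covariate, 2 with X, Y and mitochondrial genes kept, and 0 to 4 with 1 library left out. All genes past the threshold were 474, 529, 758, 491, 669, 859 and 920 under these settings, 439 with all 8 libraries in 1 fit, 1 to 767 with 1 library left out, and 0 without a filter, without an intensity trend and with the muscle score as a covariate. With HFD, members past the threshold were 4 with library type as a covariate and 0 to 3 with 1 library left out. All genes were 24 with at least 1 FPKM, 45 after median centring, 75 with 8 libraries, 745 with library type, 98 to 726 with 1 library left out, and 0 without a filter, after quantile normalization or rescaling, without a trend, with the muscle score and with X, Y and mitochondrial genes kept. For the difference of effects, members were 3 with library type and 1 after median centring. No share of all genes is given for these 2 settings, so these counts cannot be set against it.

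The sign changed with the muscle score as a covariate for Atp2a1 (-0.59), Atp2a2 (-0.76), Casq1 (-0.41), Slc8a1 (0.0872) and Mcub (0.62) in the cold, and for Sln (0.16), Pln (0.17), Atp2a2 (1.69), Ryr1 (0.59), Casq1 (0.42), Casq2 (0.64), Strit1 (0.0148) and Slc8a3 (0.0223) with HFD. Atp2a2 with HFD was also 0.0108 with pseudocount 0.1, -1.16 to 1.15 with 1 library left out (1.15 without NCD replicate 8 and 0.42 without HFD replicate 6) and 0.72 within satellite-low libraries, a split chosen after seeing the data. Casq2 with HFD was -0.44 to 0.35 with 1 library left out (0.35 without NCD replicate 8) and 0.31 within satellite-low libraries. Itpr1 with HFD was -0.10 after median centring. With 1 library left out, Slc8a1 was -0.19 to 0.12 and Mcub -0.19 to 0.0796 in the cold, and Orai3 -0.46 to 0.0128 and Letm1 -0.62 to 0.15 with HFD. Among the markers, Cd68 in the cold was -0.0196 after median centring, -0.0987 after rescaling and -0.0100 to 0.49 with 1 library left out, and Ptprc in the cold was 0.71 with the muscle score as a covariate. Pln in the difference of effects was 0.0940 after median centring, 0.12 after quantile normalization and 0.00256 with pseudocount 0.1. Atp2a1, Ryr1 and Casq1 kept their sign within satellite-high and within satellite-low libraries in both comparisons.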

Other observations

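The genes whose pattern over the 8 libraries lay closest to each regulator were named by the smallest root mean square difference of centred log2(FPKM + 1), among 9922 protein-coding genes averaging 1 FPKM or more. For Atp2a1 they were Pvalb (0.27), Ckm (0.29), Tnnt3 (0.31), Tnni2 (0.34) and Mylpf (0.38), where Atp2a1 itself varied by 2.39 about its mean. For Sln, which varied by 0.60, they were Jph1 (0.09), Shisa4 (0.11), Rcan2 (0.13), Prob1 (0.14) and Unc45b (0.14). For Atp2a2, which varied by 0.77, they were Pdk2 (0.26), Psmd12 (0.37), Mfn2 (0.43), Ube4a (0.44) and Coa7 (0.44). The nearest genes of Pln, led by Zfp398 (0.09), were nearly as far from Pln as Pln varied about its own mean (0.10). These are descriptions over 8 libraries with no test.

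Other marker lists had these values. Of 4 smooth muscle markers 0 passed, and 4 were higher in both 4 °C libraries (37.9% of all genes, list median 1.05) and 3 in both HFD libraries (39.9% of all genes, list median 0.68). Of 8 brown adipocyte markers 0 passed, with medians of 0.38 in the cold and -0.10 with HFD. Of 4 endothelial markers 0 passed, with medians of 0.13 and 0.64. Blood and immune markers had a median of -0.04 in the cold and 0.67 with HFD.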
